A study of Mus musculus with 24 samples.

Results

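Motile cilia are the beating projections of multiciliated airway cells, which move mucus along the airway surface. Their core is the axoneme, a ring of doublet microtubules around a central pair. Outer and inner dynein arms slide the doublets, while radial spokes, the central apparatus and the nexin-dynein regulatory complex control the beat. Dynein arms are put together in the cytoplasm by assembly factors before they enter the cilium, and tektins and other inner proteins stabilise the doublets. In the lung, transcripts of many of these genes come mainly from multiciliated cells, whose formation is driven by Mcidas and Ccno and whose ciliary programme is switched on by the forkhead factor Foxj1 together with RFX factors.

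The motile cilium genes were taken from the deposited expression table by symbol. They comprised every protein-coding gene whose symbol starts with Dnah (15 genes), Dnai (2), Dnaaf (5), Cfap (32), Drc (3), Rsph (7) or Tekt (5), and 12 genes listed by name, Foxj1, Mcidas, Ccno, Spag6l, Spag16, Spag17, Ccdc39, Ccdc40, Ccdc180, Nek10, Ak7 and Ak9. This gave 81 of 16088 protein-coding genes and 23891 genes in all. Of these, 79 reached a mean of 1 CPM (reads on a gene, scaled to a common library total) over the 24 samples and entered the fits, together with 17744 genes in total. Mcidas (mean 0.289 CPM) and Tekt3 (0.320 CPM) lay well below that limit and Ccno (1.05 CPM) just above it. The set was chosen by symbol but with values in view: the log2 fold changes of HDM vs. saline and HDM + Dex vs. HDM were already known when it was proposed, and in them Ccdc180, Nek10, Spag16, Ak9 and Drc3 had stood out. Values of the genes in those comparisons, and in HDM + Dex vs. saline, which uses the same samples, are therefore a description and carry no test.

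RNA-Seq of the left lung lobe of C57BL/6 mice covered 4 groups. Naïve adult mice (n = 5) were labelled 20 wk and naïve aged mice (n = 5), which served as the saline group, 80 wk. Aged mice challenged with house-dust mite (HDM) received 50 µg per intranasal dose (n = 7), and the HDM + Dex mice (n = 7) also had dexamethasone (Dex), a glucocorticoid drug, in repeated injections of 4 mg/kg, 72 h apart. Lungs were collected 24 h after HDM was last given, and the mice were wild type. In whole-lobe RNA, fewer multiciliated cells and less RNA per cell cannot be told apart.

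Depth was estimated at 10.1 to 33.1 M reads per sample from the steps between low values, and 3 reads correspond to 0.0906 to 0.298 CPM. Some libraries stood apart. The share of 7SL RNA (Rn7s1 and Rn7s2, the RNA of the signal recognition particle) exceeded 25% in HDM 1 to 5, in HDM + Dex 1, 2, 3 and 6 and in naïve adult 1, and was 9.92% to 18.9% in the other samples. Since CPM share a fixed total, a larger 7SL share lowers all other genes. Over all genes tested, the median log2 difference was −0.23 for HDM vs. saline, 0.03 for HDM + Dex vs. HDM, −0.19 for HDM + Dex vs. saline and 0.19 for aged vs. adult, and values after median-of-ratios rescaling are given where this matters. By Xist and Ddx3y, HDM 6 and 7 were the only females of the HDM group, and 4 of 7 HDM + Dex, 2 of 5 naïve aged and 5 of 5 naïve adult samples were female.

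Across the 4 groups, the motile cilium genes formed a block that was lower in HDM lungs and higher again with Dex. The CPM of the 81 genes summed to 2227 at the median in naïve adult (lowest 2025, highest 2277) and 2339 in naïve aged lungs (1953 to 2731). The median sum was 794 in HDM (499 to 1695) and 1955 in HDM + Dex lungs (1212 to 2452). No HDM lung reached the range of the naïve aged lungs, whereas the HDM + Dex lungs spanned values between and within both.

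The mean log2(CPM + 1) of the 79 genes gave the same picture by sample. It was 4.13, 4.21, 4.09, 4.22 and 4.09 in the naïve adult and 4.23, 4.46, 4.44, 4.11 and 4.28 in the naïve aged lungs. In HDM 1 to 7 it was 2.78, 3.29, 2.29, 2.47, 2.87, 3.89 and 3.68. In HDM + Dex 1 to 7 it was 4.05, 3.59, 4.02, 4.29, 4.33, 3.37 and 4.202. All 7 HDM lungs lay below all naïve lungs, HDM 6 and 7 were the highest of their group, and HDM + Dex 2 and 6 fell within the HDM range.

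**Figure D1:**
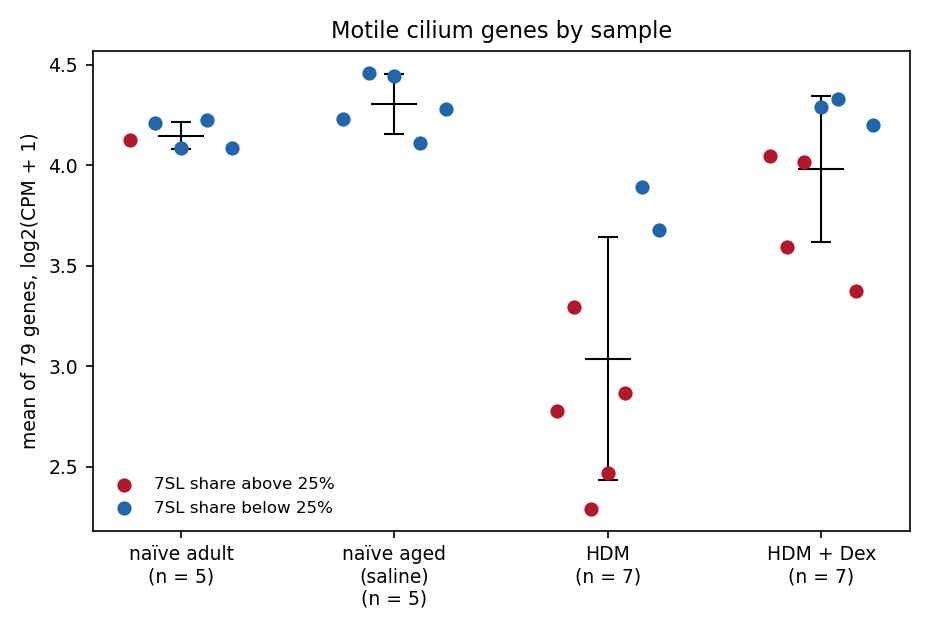
Mean log2(CPM + 1) of the 79 motile cilium genes in each lung (points), with group means and SD (bars) and colour for the share of 7SL RNA. The HDM lungs lie between 2.29 and 3.89 and the HDM + Dex lungs between 3.37 and 4.33, and HDM 6 and 7, with 7SL shares below 25%, are the highest of the HDM lungs.

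The genes with a high level per coding length were not those of the dynein arms. Untranslated parts of the transcripts are left out of that length, which can raise genes with a short coding sequence in this order. Divided by the longest coding sequence, the mean level over the 24 lungs ran from 0.113 CPM per coding kb (Dnah14) to 58.1 (Cfap20), with a median of 5.17. Cfap20, an inner junction protein of the doublet, was followed by Cfap36 (48.4 CPM per coding kb), Cfap298, a dynein assembly factor (39.0), Foxj1 (30.6) and Rsph3b, a radial spoke protein (19.1). In naïve aged lungs the level of Cfap20 was 67.4 ± 1.92 CPM per coding kb (SD, n = 5), that of Cfap36 51.3 ± 4.48, that of Cfap298 41.7 ± 8.05 and that of Foxj1 34.5 ± 12.2. Cfap298 and Foxj1 did not differ beyond their spread. Mcidas (0.254), Tekt3 (0.218) and Dnah14 (0.113 CPM per coding kb over the 24 lungs) closed the order.

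Among genes of the central apparatus, Spag6l had the lowest log2 fold change of the 79 genes with HDM. Spag6l (chr16:16753016-16829456, minus strand, GRCm38) encodes a central pair protein. Its CPM were 21.7, 21.97, 26.7, 19.7 and 18.4 in the naïve aged lungs, and in HDM lungs the lowest was 1.04, the median 2.58 and the highest 11.4. The groups did not overlap, and the log2 fold change was −2.22 ± 0.38 (SE), or 0.223 times the saline mean. With Dex the lowest was 5.67, the median 12.7 and the highest 25.0 CPM, a log2 fold change of 1.46 ± 0.35 against HDM. Spag17 (chr3:99885406-100143322), also of the central pair, was at a median of 28.2 CPM in naïve aged lungs, 6.21 with HDM and 19.3 with HDM + Dex. Spag16 (chr1:69826970-70725132), its partner in the central apparatus, was at 15.8, 6.12 and 12.8 CPM, and all 7 HDM + Dex lungs (10.34 to 17.4 CPM) lay above all 7 HDM lungs (1.59 to 10.26 CPM). All 11 genes of the central apparatus had a negative log2 fold change with HDM, from −2.22 to −1.01, and a positive one with Dex, from 0.70 to 1.46.

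The chains of the outer and inner dynein arms had similar log2 fold changes. Dnah5 (chr15:28203752-28472052), an outer arm heavy chain, was at 151, 134, 168, 103 and 142 CPM in the naïve aged lungs. In HDM lungs it ranged from 18.4 to 87.5 CPM with a median of 34.2, and in HDM + Dex lungs from 59.0 to 167 with a median of 117. No HDM lung overlapped the saline lungs, and the log2 fold change was −1.80 ± 0.33 for HDM vs. saline and 1.41 ± 0.30 for HDM + Dex vs. HDM. The outer arm intermediate chains Dnaic1 and Dnaic2 (now named Dnai1 and Dnai2) had log2 fold changes of −1.78 ± 0.34 and −1.49 ± 0.32 with HDM. Dnaic1 was at 0.0996 CPM in HDM 3, below 3 reads. Among inner arm heavy chains, Dnah6 (chr6:73017606-73221651) was at 148, 157, 190, 112 and 136 CPM in naïve aged lungs and at 10.2 to 87.5 CPM in HDM lungs (median 41.6), a log2 fold change of −1.93 ± 0.41. Dnah3 had a log2 fold change of −1.69 ± 0.35. The 5 outer arm chains had a median log2 fold change of −1.70 with HDM and 1.37 with Dex, and the 9 inner arm heavy chains −1.72 and 1.18. Reads of the near-identical Dnah7a, Dnah7b and Dnah7c may have been split among them, so their separate values are uncertain.

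Outer arm heavy chains known from sperm did not follow the other heavy chains. Dnah8 (chr17:30624354-30877365, plus strand) was at 8.73, 9.03, 10.4, 13.4 and 7.68 CPM in naïve aged lungs, and in HDM lungs at 11.6 to 23.6 CPM with a median of 15.4. It was the only one of the 79 genes with a positive log2 fold change with HDM, 0.69 ± 0.19, or 1.70 times the saline mean, although the groups overlapped. It was 0.93 after rescaling. HDM + Dex lungs were at 11.0 to 22.2 CPM, a log2 fold change of −0.04 ± 0.17 against HDM. Dnah17 was at a median of 4.50 CPM in naïve aged lungs, 4.36 with HDM and 3.88 with HDM + Dex, a log2 fold change of −0.04 ± 0.17 with HDM. Dnah14, a heavy chain of unclear place, was at 1.89 and 1.38 CPM in the naïve aged and HDM means.

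Genes that set the spacing of arms and spokes had lower levels with HDM throughout. Ccdc39 and Ccdc40 form the molecular ruler of the doublet, and Drc1, Drc3 and Drc7 belong to the nexin-dynein regulatory complex. Ccdc40 (chr11:119228572-119265238) was at 44.9, 57.7, 61.5, 46.6 and 57.7 CPM in naïve aged lungs and at 6.76 to 37.1 CPM in HDM lungs (median 8.61), with a log2 fold change of −1.98 ± 0.35. HDM 6 and 7 were at 37.1 and 28.6 CPM, whereas HDM 1 to 5 were at 6.76 to 13.2 CPM. With Dex, Ccdc40 ranged from 16.6 to 51.7 CPM (median 41.2). Drc1 had the highest log2 fold change of this group with Dex, 1.55 ± 0.30, and was at a median of 32.6 CPM in naïve aged lungs, 6.68 with HDM and 32.6 with HDM + Dex. All 5 genes had HDM lungs below all saline lungs.

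Radial spoke genes differed among themselves. Rsph4a, of the spoke head, was at 38.6, 36.9, 47.0, 29.5 and 30.8 CPM in naïve aged lungs and at 7.48 to 23.9 CPM (median 10.3) in HDM lungs, without overlap, a log2 fold change of −1.54 ± 0.25. Rsph3a and Rsph3b, of the spoke stalk, had smaller log2 fold changes, −0.59 ± 0.20 and −0.59 ± 0.19, and both overlapped between the groups. Rsph3a and Rsph3b are close copies, and their reads may have been shared. The 7 radial spoke genes had a median log2 fold change of −1.14 with HDM and 0.57 with Dex.

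Among tektins and other inner proteins of the doublet, 10 of the 11 genes tested had a log2 fold change between −1.88 and −0.56 with HDM. Tekt1 was at 11.2, 15.96, 14.6, 11.7 and 9.65 CPM in naïve aged lungs and at 0.796 to 8.13 CPM (median 2.87) in HDM lungs, a log2 fold change of −1.78 ± 0.37. Tekt2 and Tekt4 had log2 fold changes of −1.65 ± 0.36 and −1.40 ± 0.35. The exception was Tekt5, at a median of 2.65 CPM in naïve aged lungs, 1.71 with HDM and 1.86 with HDM + Dex, a log2 fold change of −0.11 ± 0.24. Tekt3 was under 1 CPM in all 24 lungs.

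Dynein assembly factors showed smaller differences than the arms they build. Their median log2 fold change was −0.56 with HDM and 0.47 with Dex over 7 genes. Dnaaf1 was at a median of 9.04 CPM in naïve aged lungs, 4.64 with HDM and 8.08 with HDM + Dex, a log2 fold change of −0.998 ± 0.27 with HDM. Dnaaf2 (−0.29 ± 0.19), Dnaaf3 (−0.17 ± 0.21) and Dnaaf5 (−0.29 ± 0.22) overlapped between HDM and saline, and after rescaling these log2 fold changes were −0.06, 0.05 and −0.05.

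Cfap genes without a more exact place here had log2 fold changes from −2.03 to −0.23 with HDM. Cfap44, which anchors an inner dynein arm, was at 96.3, 108, 114, 73.1 and 92.6 CPM in naïve aged lungs and at 11.8 to 55.4 CPM in HDM lungs (median 16.4), a log2 fold change of −2.03 ± 0.34. Cfap43, its partner, had −1.50 ± 0.31. At the other end, Cfap410 (−0.23 ± 0.17), Cfap36 (−0.25 ± 0.11) and Cfap97 (−0.45 ± 0.21) overlapped between the groups and were at −0.01, −0.0012 and −0.21 after rescaling. In the central apparatus, Cfap65 had −1.21 ± 0.27. Ak7, an adenylate kinase of motile cilia, was at 38.4, 51.6, 46.7, 43.6 and 42.8 CPM in naïve aged lungs and at 0.995 to 25.2 CPM (median 11.8) in HDM lungs. Its log2 fold change was −2.11 ± 0.43 with HDM, and 1.67 ± 0.39 with Dex, the highest of the 79 genes.

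Ccdc180, Ak9, Nek10 and Spag16 were the only genes of the set with all HDM + Dex lungs above all HDM lungs. Ccdc180 was at 35.1, 50.3, 50.3, 38.6 and 40.5 CPM in naïve aged lungs, at 12.5 to 29.03 CPM (median 15.3) in HDM lungs and at 35.0 to 66.6 CPM (median 41.8) in HDM + Dex lungs. Ak9, another adenylate kinase, was at a median of 24.8, 8.07 and 20.0 CPM in these groups. Nek10, a kinase required for full-length airway cilia, was at 8.69, 4.55 and 8.07 CPM. Among all genes tested, 0.147% had HDM + Dex lungs above HDM lungs without overlap. Since these genes were known from this comparison, nothing is read from that share.

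Among the regulators, Foxj1 was lower with HDM by less than the median of the 79 genes. Foxj1 (chr11:116330704-116335399, minus strand) was at 33.4, 59.1, 44.8, 23.3 and 57.3 CPM in naïve aged lungs, and in HDM lungs the lowest was 12.2, the median 19.5 and the highest 50.7. The groups overlapped, since HDM 2, 6 and 7 were at 25.9, 50.7 and 37.2 CPM. Its log2 fold change was −0.85 ± 0.29 with HDM, 0.85 ± 0.27 with Dex and −0.0041 ± 0.29 for HDM + Dex vs. saline. Ccno was at a median of 1.93 CPM in naïve aged lungs, 0.685 with HDM and 0.695 with HDM + Dex, with no read in HDM 3. Its log2 fold change was −0.52 ± 0.22 with HDM and 0.08 ± 0.20 with Dex. At so low a level the pseudocount of 1 makes these values smaller, so Ccno was not ranked against higher genes. Its mean was 1.38 CPM per coding kb in naïve aged and 0.649 in HDM lungs. Mcidas was under 1 CPM in all lungs and at the constant for no read in naïve aged 5 and HDM 1, 3 and 4, so its level was not measurable in those lungs at this depth.

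**Figure D2:**
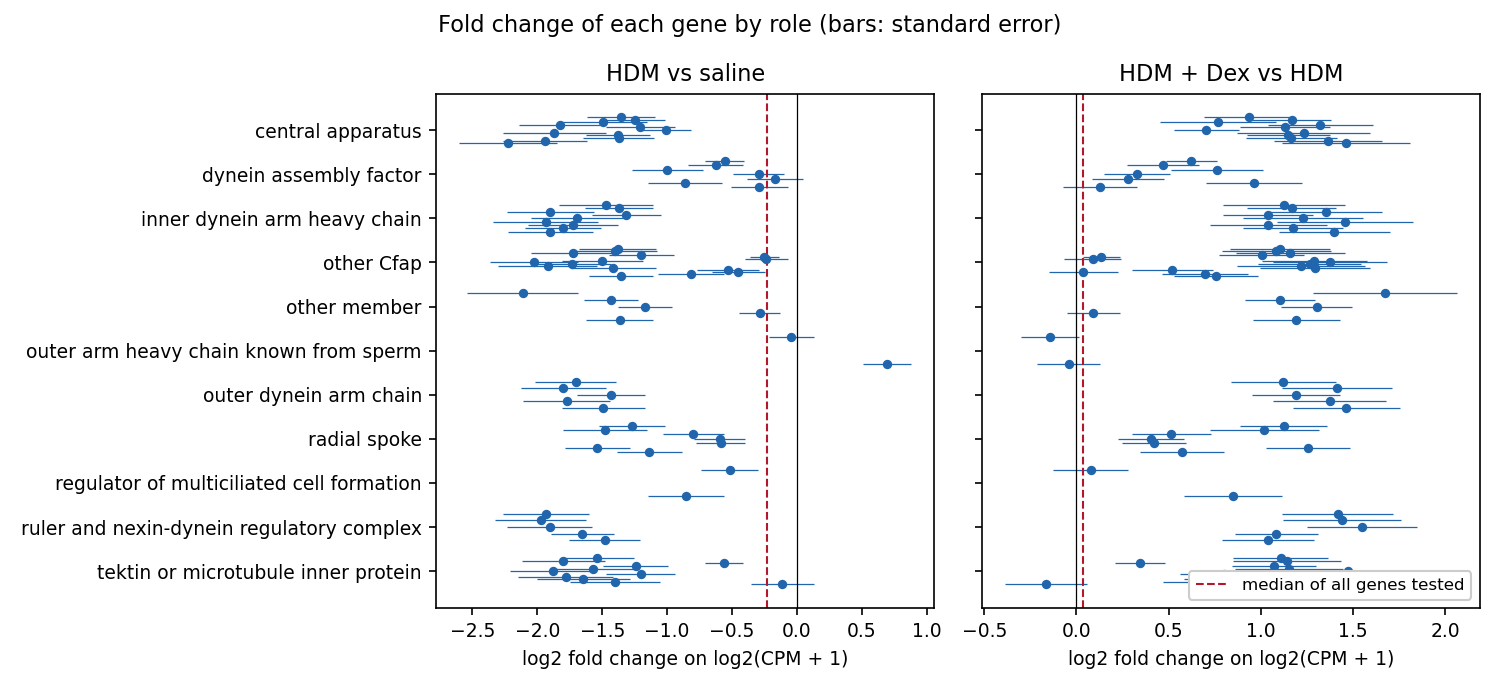
Log2 fold change of each of the 79 genes (points, with SE) on log2(CPM + 1) by role, for HDM vs. saline and HDM + Dex vs. HDM, with the median of all genes tested (dashed). The arms, ruler and central apparatus lie between −2.22 and −1.01 with HDM, the assembly factors between −0.998 and −0.17, and Dnah8 alone is positive at 0.69.

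Over the whole set, 78 of 79 genes had a negative log2 fold change with HDM, the median was −1.40, and after rescaling −1.20. At an adjusted p under 0.05 in limma, 67 genes were lower and 1 was higher, beside 21.2% of all genes tested that were lower and 4.04% that were higher. HDM lungs lay below saline lungs without overlap for 50 genes, beside 7.69% of all genes. Because known results of this comparison chose the genes, nothing is read from these counts. With the 7SL share as a covariate 23 genes passed, and the median was −0.80. In that fit 399 of all 17744 genes tested were lower and 1172 higher, with a median of 0.07 for all genes. No saline lung had a 7SL share above 25%, so that above this share HDM and 7SL cannot be told apart. Among lungs below 25%, HDM 6 and 7 against the 5 naïve aged lungs gave a median log2 fold change of −0.60, with 72 of 79 genes negative, beside a median of 0.03 for all genes. HDM 6 and 7 were both above HDM 1 to 5 for 60 of the 79 genes, against 44.0% of all genes tested. HDM 3, with the fewest reads (10.1 M) and the highest 7SL share of the aged lungs (33.97%), was the lowest HDM lung for 49 genes. Within males, 5 HDM against 3 naïve aged lungs gave a median of −1.76, beside −0.32 for all genes. Within females, 2 against 2 lungs gave −0.61, beside 0.01 for all genes. All male HDM lungs had a 7SL share above 25%, and the female ones were HDM 6 and 7. Sex and 7SL share can therefore not be told apart among the HDM lungs.

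Between HDM + Dex and HDM, 76 of 79 genes had a positive log2 fold change, and the median was 1.10, or 1.08 after rescaling. In limma 36 genes were higher and none lower, beside 0.75% and 0.214% of all genes tested. This count rests on single libraries. It was 1 or 2 without HDM 1, 3, 4 or 5 and without HDM + Dex 1, 3, 4 or 5, was 18 without HDM + Dex 7, and rose to 54 without HDM 6 or HDM + Dex 6. It was 0 when only these groups were fitted, whereas the median log2 fold change stayed between 0.94 and 1.27 over all samples left out. Over all genes tested the calls in either direction moved in the same way, from 171 in the main fit. They were 2 to 8 without HDM 1, 3, 4 or 5 or HDM + Dex 1, 3, 4 or 5, and 92 without HDM + Dex 7. They rose to 457 without HDM 6 and 434 without HDM + Dex 6, and 1 gene passed with only these groups. Among lungs with a 7SL share above 25%, 4 HDM + Dex against 5 HDM lungs gave a median of 1.19, with 77 genes positive. Below 25%, 3 against 2 lungs gave 0.60, with 71 genes positive. Within females the median was 0.31 (4 against 2 lungs), beside −0.12 for all genes. Within males it was 1.32 (3 against 5), beside 0.0033 for all genes. The female HDM lungs were again HDM 6 and 7, so that sex and 7SL share cannot be told apart here either. HDM + Dex 6 was the lowest of its group for 54 of the 79 genes.

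At the median of the set, HDM + Dex was slightly below the naïve aged level. In mean log2(CPM + 1), HDM + Dex 1, 2, 3 and 6, with 7SL shares above 25%, lay below all naïve aged lungs. HDM + Dex 2 and 6 lay within the HDM range. The median log2 fold change for HDM + Dex vs. saline was −0.33, or −0.14 after rescaling, with 73 of 79 genes negative, and ran from −0.76 (Spag6l) to 0.65 (Dnah8). In limma 0 genes passed, beside 1.89% of all genes tested, and 6 had an unadjusted p under 0.05, beside 21.2% of all genes. With sample quality weights 18 of 79 passed, beside 30.8% of all genes. Among lungs with a 7SL share below 25% (3 against 5), the median was −0.04. Ccdc180 (0.13 ± 0.21) and Dnaic2 (−0.03 ± 0.32) were close to the saline level, while Tekt2 (−0.74 ± 0.36) and Cfap161, an inner protein (−0.66 ± 0.32), were among the lower ones.

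**Figure D3:**
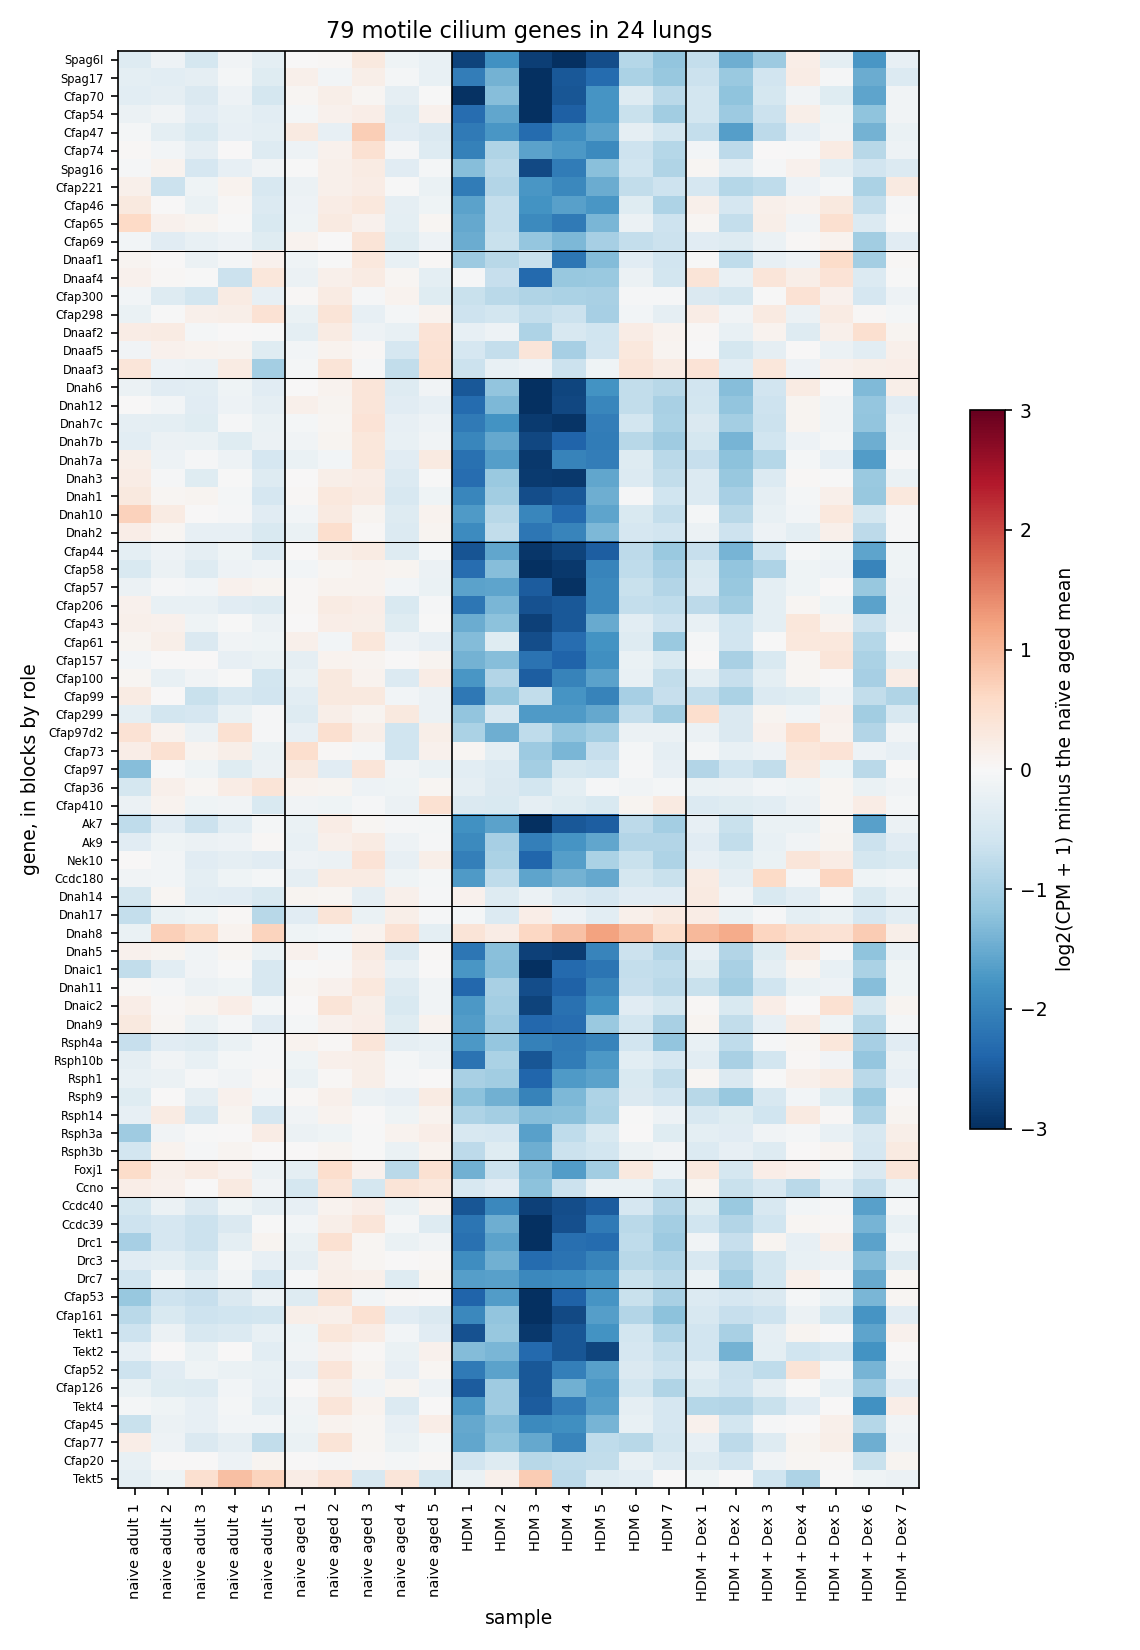
Log2(CPM + 1) of the 79 genes (rows, in blocks by role) in each of the 24 lungs (columns), minus the naïve aged mean of the gene. HDM 1 to 5 are lower for most genes, HDM 6 and 7 and HDM + Dex 2 and 6 are lower by less, and the row of Dnah8 is higher in HDM and HDM + Dex lungs.

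Age was compared in naïve lungs. The naïve aged lungs also served as the saline group of the HDM comparison, so the comparisons share samples. In limma none of the 79 genes passed at an adjusted p under 0.05, beside 0.654% of all genes tested, and 5 genes had an unadjusted p under 0.05, beside 11.2% of all genes. The median log2 fold change of aged vs. adult was 0.16 as deposited, close to the 0.19 of all genes, and −0.04 after rescaling. Cfap53 and Cfap161, inner proteins of the doublet, had the highest values, 0.61 ± 0.21 (adjusted p = 0.258 from limma) and 0.61 ± 0.20 (adjusted p = 0.234 from limma). Cfap161 was at 6.70 to 8.79 CPM in the adult and at 8.95 to 17.3 CPM in the aged lungs, without overlap. Both were named after their values were seen.

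Single genes were also compared between the ages with an exact permutation test (two-sided, on mean CPM) for 36 genes of the set. Some of these were picked by their log2 fold change with HDM. That comparison uses the same naïve aged lungs, so the choice can favour genes that are high in them. With 5 against 5 lungs the smallest p possible is 0.00794. The smallest p found was 0.0159, for Ak7, which had 44.6 ± 4.87 CPM in aged and 33.3 ± 6.58 CPM in adult lungs (SD, n = 5 each), higher in 24 of 25 pairs of an aged and an adult lung. Drc3 had 20.9 ± 2.30 and 16.98 ± 1.76 CPM (exact p = 0.0238). In all, 7 of the 36 genes had an exact p under 0.05, the others being Spag17, Tekt1, Spag6l, Ccdc39 and Drc7, each higher in aged lungs, beside 12.1% of all genes tested under the same test. After rescaling, the log2 fold changes of these 7 genes were between 0.05 and 0.23, and naïve adult 1 had a 7SL share of 42.0%. After Benjamini-Hochberg adjustment over the 36 genes the smallest value was 0.214, so that no difference passed. Foxj1 had 43.6 ± 15.4 CPM in aged and 47.5 ± 8.88 CPM in adult lungs (exact p = 0.587). Dnah8 had 9.86 ± 2.22 and 13.2 ± 3.62 CPM (exact p = 0.103). All 5 naïve adult lungs were from females and 3 of 5 naïve aged lungs from males, so age and sex are partly confounded.

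The genes also varied together within groups. After group means were removed, each gene was compared with the mean of the other genes over the 24 lungs, which share depth and 7SL share within a sample. The median Pearson r was 0.87 over the 79 genes, and 52 genes were above 0.8. Over the other 17665 genes tested the median r with the mean of the set was 0.35. Cfap44 (0.98), Dnah5 (0.97) and Rsph10b (0.97) followed the set most closely. Dnah8 (−0.22), Tekt5 (−0.18), Dnah14 (−0.05) and Dnah17 (0.18) did so least, and these were also among the genes with the smallest difference with HDM or, for Dnah8, a positive one.

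**Figure D4:**
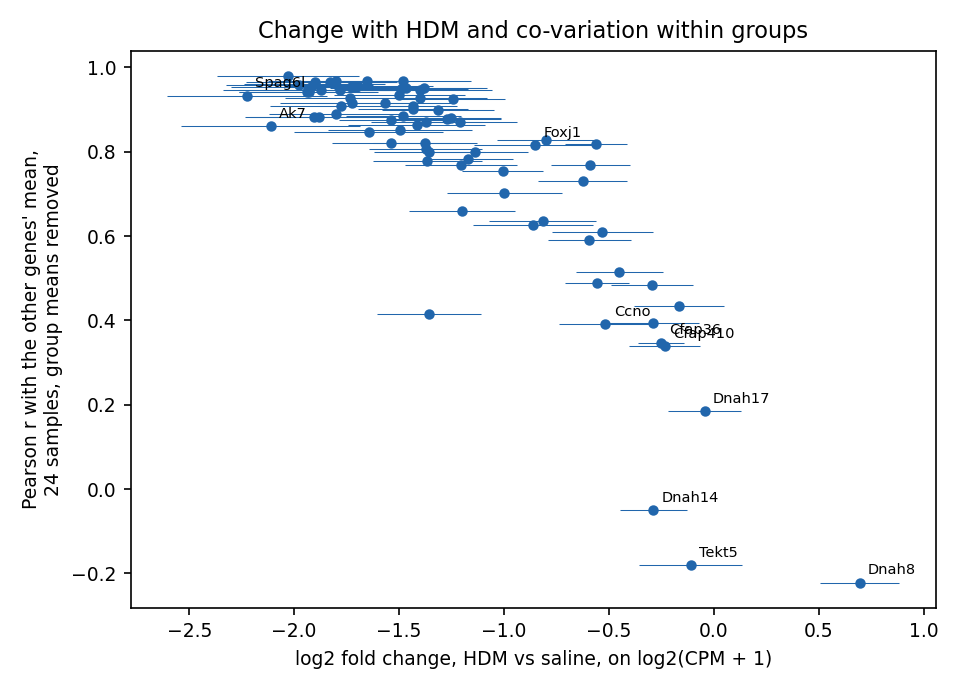
Log2 fold change with HDM (x axis, with SE) and Pearson r of each gene with the mean of the other genes over 24 lungs after removal of group means (y axis). Most of the 79 genes sit at r above 0.8 and log2 fold changes below −1, apart from Dnah8, Tekt5, Dnah14 and Dnah17, at r of −0.22 to 0.18.

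Outside the set, likeness to its mean was measured in the same way. The 15 genes with the highest r were Hydin (0.98), Fhad1 (0.98), Kif27 (0.98), Spef2 (0.97), Ttc21a (0.97), Ccdc153 (0.97), Mycbpap (0.96), Gm973 (0.96), Lrguk (0.96), Fam161a (0.96), Map3k19 (0.95), Iqub (0.95), Cdhr3 (0.95), Adgb (0.95) and Lrrc74b (0.95). Hydin, a central apparatus protein, was at a mean of 93.1 CPM in naïve aged lungs, 29.9 with HDM and 71.2 with HDM + Dex, and Fhad1 at 70.5, 25.9 and 55.1 CPM.

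Long genes differed more than short ones. Across the 79 genes, which are not independent, Spearman's rho between coding length and log2 fold change was −0.32 for HDM vs. saline and 0.36 for HDM + Dex vs. HDM. The median log2 fold change with HDM was −1.69 for the 19 genes with a coding sequence of at least 6000 nt and −1.20 for the 37 genes below 2000 nt. The mean level was related to the fold change in the same way (rho −0.35 and 0.48), and the pseudocount of 1 makes the log2 fold changes of low genes smaller.

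Other genes of motile cilia were examined in 4 lists that hold no symbol of the families. Genes that belong to the families under other names may be among them. Of the 71 list genes tested, 61 were lower with HDM in limma and none was higher, beside 21.2% of all genes that were lower. Their median was −1.17, beside −0.23 for all genes. The lists, like the set, were made with results of these data known, so that nothing is read from their counts. Among other axoneme genes, 33 of 36 fell, with a median of −1.45. Hydin had a log2 fold change of −1.81 ± 0.32, Spata18 of −1.64 ± 0.33 and Mns1, an inner protein of the doublet, of −1.41 ± 0.27. Nme7 (−0.09 ± 0.14), Ropn1l (−0.35 ± 0.26) and Spef1 (−0.54 ± 0.20) did not pass. All 12 other ciliated cell markers fell, among them Tppp3 (−1.53 ± 0.25), Ccdc153 (−1.58 ± 0.31) and Cdhr3 (−2.07 ± 0.42). Of 7 regulators, 6 fell, and Rfx3 (−0.76 ± 0.16), Rfx2 (−0.83 ± 0.22) and Myb (−1.07 ± 0.27) were among them. The 16 genes of intraflagellar transport, which primary cilia of other cells also use, had a smaller median of −0.59, and 10 of them fell. Traf3ip1 (−1.22 ± 0.25), Ift172 (−0.61 ± 0.18) and Ift140 (−0.62 ± 0.21) passed. With the 7SL share as a covariate, 9 of the 71 genes passed, beside 1571 of all 17744 genes tested, 399 of them lower.

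With Dex, 19 of the 71 genes were higher than in HDM lungs, beside 0.75% of all genes, and 0 were lower, and the median of the 71 was 0.90, beside 0.03 for all genes. They included Hydin (1.36 ± 0.29), Ccdc153 (1.24 ± 0.28) and Traf3ip1 (1.00 ± 0.22). Rfx3 (0.51 ± 0.15), Rfx2 (0.59 ± 0.20), Myb (0.47 ± 0.25), Tppp3 (0.92 ± 0.23) and Mns1 (0.96 ± 0.24) did not pass. This count too rested on single libraries, from 0 without HDM 1, 3, 4 or 5 or HDM + Dex 1, 3, 4 or 5, and 4 without HDM + Dex 7, to 31 without HDM 2, 38 without HDM 7, 40 without HDM + Dex 6 and 46 without HDM 6. It was 42 after rescaling, where 505 of all genes tested passed in either direction. The count over all genes rested on the same libraries. In aged vs. adult lungs 0 of the 71 genes passed in limma, and 15 had an unadjusted p under 0.05, beside 11.2% of all genes tested.

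**Figure D5:**
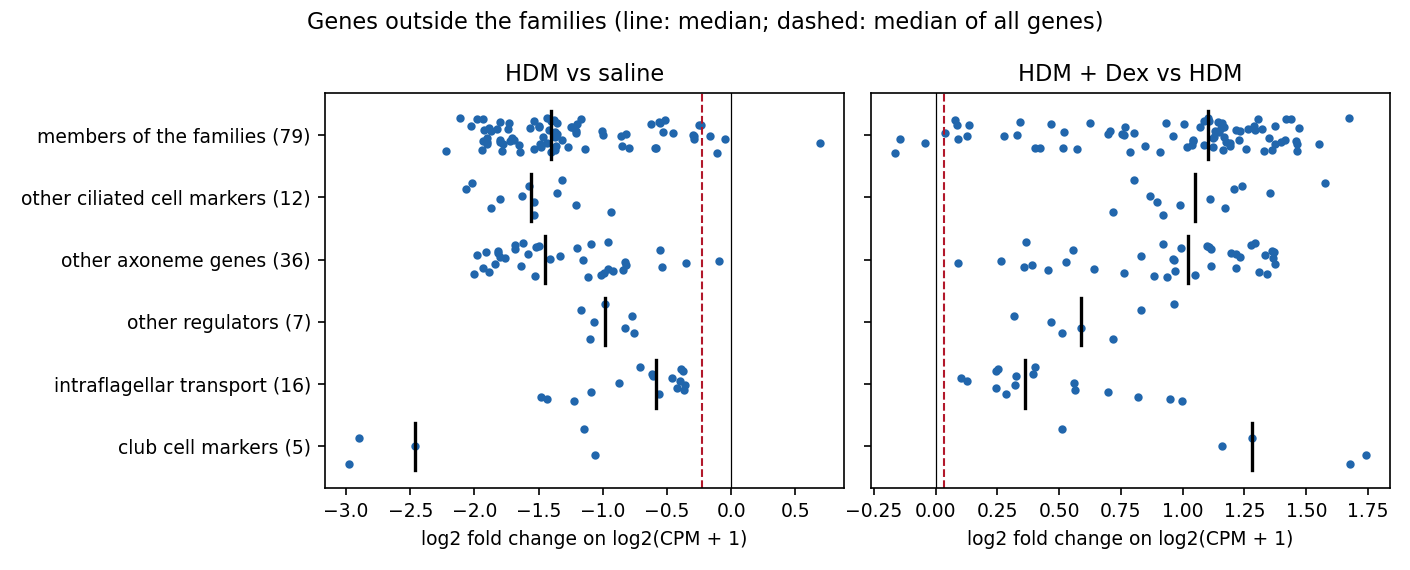
Log2 fold change on log2(CPM + 1) of the 79 genes, of 4 lists of other cilium genes and of club cell markers (points), with the median of each list (line) and of all genes tested (dashed). The median with HDM is −1.40 for the 79 genes, −1.45 for other axoneme genes, −0.98 for other regulators, −0.59 for intraflagellar transport and −2.46 for club cell markers.

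Markers of some other cell types also differed between the groups. The summed level of 5 club cell markers, secretory cells of the same airways, had a median of 7223 CPM in naïve aged lungs, 1576 CPM with HDM and 3150 CPM with HDM + Dex. After removal of group means, the r with the 79 genes over the 24 lungs was 0.92 for the club cell markers, 0.28 for heart muscle markers and 0.25 for goblet cell markers. It was 0.44 for epithelium in general, 0.43 for type 1 and 0.36 for type 2 alveolar cells, 0.19 for leukocytes and −0.007 for basal cells. The 9 heart muscle markers summed to a median of 1083 CPM in naïve aged lungs, 79.1 with HDM and 352 with HDM + Dex. Markers of epithelium in general (5 genes) summed to 574, 388 and 442 CPM, and all 5 had a negative log2 fold change with HDM. Goblet cell markers (6 genes), of mucus cells in the same airways, summed to medians of 171, 286 and 818 CPM, with HDM lungs from 38.9 to 1041 CPM. The 7 markers of type 2 alveolar cells summed to 7467, 7427 and 7624 CPM. The 5 markers of type 1 alveolar cells summed to 1181, 847 and 903 CPM, and 4 of them had a negative log2 fold change with HDM. The part that the amount of airway or of heart tissue in the lobe had in these differences was not tested.

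Promoters of the genes were searched for motifs of the RFX and forkhead factors named above, because the genes moved together. RefSeq windows from 250 bases before to 50 bases after the start (GRCm38.p6) were matched by symbol for 68 of the 81 genes. An RFX motif, GTTGCCA on either strand, was present for 16 of the 68 genes (23.5%), against 5.02% of all 27025 genes with a window and 4.80% of protein-coding ones. A looser pattern was a pair in opposite orientation, GTNNCC and GGNNAC 0 to 3 bases apart, with any base at N. This pair was present for 13 genes (19.1%), against 4.38% of all genes. A forkhead motif, TGTTTAC on either strand, was present for 6 genes (8.82%), against 4.05%. The RFX motif can overlap the pair. Foxj1 was not matched to a window.

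Shown are the 250 bases before the start, 5′ to 3′ on the gene's own strand, for 4 genes with a match to the looser pair. Matches are in capitals, and sites that differ from the patterns searched are left in lower case. Dnaaf5, Cfap43 and Tekt4 had no match to GTTGCCA itself. Ccno (chr13:112987552-112987801, plus strand) holds an RFX motif within its pair. Dnaaf5 (chr5:139149985-139150234, plus strand) has its pair next to the start. Cfap43 (chr19:47837362-47837611, minus strand) has a pair followed by a forkhead motif. Tekt4 (chr17:25471340-25471589, plus strand) has its pair farther upstream. The windows of Cfap43 and Tekt4 lie inside longer models of these genes in GENCODE. That of Dnaaf5 lies inside Gm15672 on the minus strand, with 17 bases in an exon of Prkar1b and 12 in an exon of Dnaaf5 itself.
Ccno: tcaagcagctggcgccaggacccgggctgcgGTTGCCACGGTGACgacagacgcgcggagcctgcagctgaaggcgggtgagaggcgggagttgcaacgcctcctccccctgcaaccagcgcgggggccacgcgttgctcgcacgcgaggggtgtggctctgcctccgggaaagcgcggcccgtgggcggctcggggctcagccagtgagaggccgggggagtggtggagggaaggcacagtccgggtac
Dnaaf5: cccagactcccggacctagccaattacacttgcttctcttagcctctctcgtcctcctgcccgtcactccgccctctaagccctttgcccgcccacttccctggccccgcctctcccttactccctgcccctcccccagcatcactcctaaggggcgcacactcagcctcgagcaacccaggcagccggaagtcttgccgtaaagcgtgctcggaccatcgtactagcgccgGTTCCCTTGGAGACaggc
Cfap43: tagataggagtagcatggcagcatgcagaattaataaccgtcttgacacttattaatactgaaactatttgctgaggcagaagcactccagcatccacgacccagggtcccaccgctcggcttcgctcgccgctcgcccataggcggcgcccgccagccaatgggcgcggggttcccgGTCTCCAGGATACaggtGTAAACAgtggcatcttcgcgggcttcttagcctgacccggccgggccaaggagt
Tekt4: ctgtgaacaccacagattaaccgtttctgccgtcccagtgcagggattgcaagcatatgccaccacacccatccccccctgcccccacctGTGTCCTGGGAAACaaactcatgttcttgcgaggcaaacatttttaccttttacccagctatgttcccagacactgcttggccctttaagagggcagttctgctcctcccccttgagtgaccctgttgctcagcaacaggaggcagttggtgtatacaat

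Ccno, Dnaaf5, Cfap43 and Tekt4 each overlapped between HDM and saline lungs. Their log2 fold changes were −0.52, −0.29, −1.50 and −1.40. A match is a description of the letters and was not tested as a binding site.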

How the data were processed

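Lung RNA of 24 mice was analysed as CPM in a table that the authors deposited, with 0.0001 in place of a value without a read. The authors sequenced stranded mRNA libraries and aligned the reads with STAR. The processing notes name mm9, but the gene coordinates matched GENCODE M21 of GRCm38 (23142 of 23276 symbols with the same start). How strand was used in counting is not given in the sources used here. Of the low values, 80.7% to 85.3% were whole multiples (within 0.05) of the spacing taken as 1 read, so counts were not restored.

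Groups followed the labels. Genes averaging 1 CPM or more over the samples were fitted on log2(CPM + 1) with limma 3.58.1 (R 4.3.3) and eBayes with a mean-variance trend, with Benjamini-Hochberg adjustment over 17744 genes at 0.05. The 19 aged and the 10 naïve samples were fitted separately. Exact permutation tests used scipy. The fit was tested on simulated data. Coding lengths are the longest coding sequence in GENCODE, and protein sequences were not used here. Nothing in the labels says more of the animals than their group, so p-values measure the spread between these samples.

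The genes and lists were chosen with earlier results of these data known. Genes named were the 12 listed by name, the 3 highest and the lowest and highest log2 fold changes with HDM of each symbol family, the 3 highest of each list and the 15 most alike. Other genes of the set (Dnah14, Dnah17, Cfap36, Cfap53, Cfap97, Cfap161, Rsph10b and others given with a value) and Nme7, Ropn1l and Spef1 were named after their values were seen. Alternatives are listed in the closing section. Values split by 7SL share and by sex were added after seeing the data.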

Additional observations from a re-analysis of the deposited data

Results flagged for a closer look

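For the mean of the 79 genes and for 12 single genes, the sample farthest from the others of its group was compared with the range of the group. In 1 of 52 groups a sample stood apart, where chance gives about 2.6. Spag17 was at 28.3 CPM in naïve adult 4, against 22.7 to 24.1 CPM in the other naïve adult lungs.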

How the results depend on the processing

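Each choice was changed alone: the pseudocount (0.1, 5), the filter (none, 5 CPM), the scaling (median-of-ratios, quantile), the groups fitted (fewer, all), the trend (none), sample quality weights, a replicate block, a covariate (7SL share, sex) and each sample left out in turn. The cause of the following changes was not tested. With the 7SL share as a covariate, 23 genes of the set and 9 of the lists passed for HDM vs. saline, 40 of the lists passed for HDM + Dex vs. HDM, and the medians of the set were −0.80 for HDM vs. saline and 0.13 for HDM + Dex vs. saline, the latter reversed. Over all 17744 genes that fit gave 1571 for HDM vs. saline and 563 for HDM + Dex vs. HDM. The medians of all genes were 0.07 for HDM vs. saline and 0.05 for HDM + Dex vs. saline. For HDM + Dex vs. HDM, the set and the lists gave 22 and 4 genes without a filter, 0 and 0 with only these groups and 56 and 44 with sample quality weights, and the lists gave 12 with a pseudocount of 0.1, 42 with rescaling, 44 with quantile normalization and 33 with all groups fitted. The replicate block gave 1 gene of the set and 0 of the lists. Over all genes, HDM + Dex vs. HDM gave 171 in the main fit, 83 without a filter and 1 with only these groups. It gave 611 with weights, 505 with rescaling and 8 with the replicate block. With a pseudocount of 0.1 it gave 145, with quantile normalization 528 and with all groups fitted 316. Same-numbered samples did not deviate together (4 of 32 pairs with r over 0.1, from −0.24 to 0.41), so the numbers were not taken as pairs. The median in lungs with a 7SL share below 25% was 0.60. For HDM + Dex vs. saline, 18 genes passed with weights and 2 with sex as a covariate, beside 5471 and 1929 of all 17744 genes. For aged vs. adult, 2 of the set and 5 of the lists passed with weights, beside 784 of all 17744 genes. The median of the set was −0.040 with rescaling and −0.038 with quantile normalization.

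Leaving out each sample gave 62 to 68 genes of the set and 56 to 65 of the lists for HDM vs. saline, 1 to 54 and 0 to 46 for HDM + Dex vs. HDM, 0 to 1 genes of the set for HDM + Dex vs. saline, and 0 for aged vs. adult. The medians were −1.58 to −1.27, 0.94 to 1.27, −0.43 to −0.22 and 0.13 to 0.23. Among single genes, the log2 fold change turned for Ccno (−0.038 with quantile normalization, −0.043 to 0.14 over samples left out) and Dnah8 (0.0036 with weights, −0.12 to 0.042 over samples left out) in HDM + Dex vs. HDM. In aged vs. adult it turned for Foxj1 (−0.31 to 0.019) and Ccno (−0.19 to 0.034) over samples left out. With rescaling and quantile normalization it turned for Spag16 (−0.045 and −0.042), Ccdc180 (−0.075 and −0.053) and Ak9 (−0.055 and −0.040). Depth limits Mcidas, Tekt3 and Ccno, which lie near 3 reads in the shallowest lungs.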
